A study of Mus musculus with 12 samples.

Results

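The genes described here take up glutamine, convert it to glutamate, or spend its nitrogen and carbon on other amino acids, nucleotides and amino sugars. They were chosen by name from a list of 30 genes, and 29 of them have non-control probes on the array, out of 27962 named features in all. Gpt is not analysed here. The cells were mouse embryonic fibroblasts (MEFs), cultured connective tissue cells, and their RNA was hybridised to 12 single-colour Agilent arrays, 4 for each of 3 genotypes of Sirt1, which encodes an NAD-dependent protein deacetylase. Cells carried both copies (wild type, WT), were heterozygous (Het), or were Sirt1 knockout (KO). All cells are labelled female and untreated, and grew in DMEM with 10% fetal bovine serum, 25 mM glucose and 4 mM glutamine until harvest in exponential growth. The labels give neither strain, embryo age nor the deleted part of Sirt1. They do not say whether replicates were separate cultures or embryos, and a p-value therefore reflects the spread among these samples alone, possibly technical. The title of the series names dosage effects of SIRT1 on proliferation and metabolism, and the arrays compare each pair of genotypes.

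Glutamine enters fibroblasts mainly through sodium-coupled carriers such as those encoded by Slc1a5, Slc38a1 and Slc38a2, and can leave again in exchange for leucine through the Slc7a5 and Slc3a2 heterodimer. Inside the cell its amide nitrogen is used by amidotransferases for purines, pyrimidines and hexosamines, while glutaminases release glutamate. Glutamate then gives its amino group, through transaminases, to the keto acids that become alanine, aspartate and phosphoserine. Otherwise it enters the tricarboxylic acid cycle through glutamate dehydrogenase, or is reduced to proline.

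A level is the log2 signal minus the 75th percentile of its array, where 0 equals that percentile, and differences are log2 differences with a standard error (SE). Per-array values follow the replicate numbers, which are 1, 2, 3 and 5 in WT and run from 2 to 5 in the 2 mutant genotypes. Levels of different probes are not compared with each other. A difference within a slide compares the means of the few arrays there, so it is no replication. Within slide 3, each mutant has only its array numbered 2, set against the mean of WT replicates 2 and 3. Within slide 4 the only WT and Het arrays are both numbered 5, while KO has numbers 4 and 5. Slide 1 lacks WT and compares KO replicate 3 with Het replicates 3 and 4. WT replicate 1 was alone on slide 2 and enters none of these differences. Of the 29 genes 28 were tested, each well above background on all 12 arrays. Slc38a5, a glutamine and serine carrier, was well above background on 3 of 12 arrays and was not tested. In bulk RNA, fewer cells of a type and less RNA per cell cannot be told apart.

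Some arrays stood apart. The array labelled WT replicate 3 had Xist, the RNA of the inactive X chromosome, at −2.98 against 1.6 to 3.35 on the other 11 arrays. The Y-linked gene Ddx3y was at 0.99 there and at −4.41 or below elsewhere, so this array goes against its female label. At the same Ddx3y probe, Het replicate 3 was at −4.41, KO replicate 3 at −5.33 and the remaining arrays at −7.10 or below. Y-linked Eif2s3y was at 0.87, −3.98 and −5.07 on WT, Het and KO replicate 3, and at −6.14 or below elsewhere. The cause was not tested. Arrays of the same genotype correlated at 0.97 to 0.998 without the arrays numbered 3, and at 0.925 or above with them. WT replicate 3 correlated at 0.925 to 0.935 with the other WT arrays, and at 0.963 and 0.957 with Het and KO replicate 3. KO replicates 4 and 5 shared a slide and were the most alike, at 0.998. One Sirt1 probe was at −0.81 to −0.23 on KO arrays and at 0.02 to 0.45 on WT and Het arrays, while a second probe, with KO arrays from 0.38 to 1.21, overlapped the other genotypes. The share of spots well above background was 60% to 65.1% on slides 1 to 3 and 77.2% to 78.2% on slide 4. All 10 fibroblast markers examined were well above background on every array. Their summed linear signal, in units of each array's 75th percentile, was 407 to 508 in WT, 499 to 658 in Het and 464 to 517 in KO. The 5 hepatocyte markers summed to 0.0682 at most. Of these, 1 was well above background on all arrays, 2 on some, and 2 (Ttr and Cps1) on none. The 5 epithelial markers summed to 0.142 to 0.642 in WT, 0.336 to 2.25 in Het and 1.31 to 1.47 in KO. Endothelial markers summed to 0.228 to 0.462, 0.0891 to 0.117 and 0.0775 to 0.354, leukocyte markers to 0.650 to 1.74, 0.480 to 0.957 and 0.537 to 0.698, neural markers to 5.05 to 21.9, 7.21 to 10.1 and 9.22 to 14.8, skeletal muscle markers to 1.58 to 5.42, 1.26 to 2.10 and 1.62 to 2.55, and adipocyte markers to 0.352 to 1.05, 0.554 to 2.63 and 0.305 to 7.37, in the same order of genotypes. Of 4 endothelial markers, 2 were well above background on all arrays, 1 on some and 1 (Pecam1) on none. Of 6 leukocyte markers, 2 were so on all arrays, 3 on some and 1 (Ptprc) on none. The part of these markers in the results below was not tested.

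With all 12 arrays, no glutamine gene passed in any of the 3 comparisons. In limma's fit over all tested features, 0 of 28 genes had a Benjamini-Hochberg adjusted p under 0.05 for Het against WT, where 1.25% of all 16990 features did. For KO against WT the count was 0 of 28 (1.76% of all features), and for KO against Het 0 of 28 (0.965%). At an unadjusted p under 0.05 the counts were 7, 7 and 0 of 28, against 16.6%, 16.9% and 11.2% of all features. Het was the higher genotype for 20 genes and the lower for 8, with a median difference from WT of 0.16 (0.09 over all features). KO was higher than WT for 19 and lower for 9, with a median of 0.15 (0.08 over all features). Against Het, KO was higher for 11 and lower for 17, with a median of −0.04 (−0.02 over all features). These directions depend on the scaling. On the unscaled signals Het was higher than WT for 11 genes and lower for 17, and KO was higher than Het for 24 and lower for 4, while the split between KO and WT was again 19 and 9. The median of all features moved to −0.16, 0.09 and 0.23 there, and the differences below are relative to the scaled arrays. Both comparisons with WT use the same WT arrays.

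The arrays numbered 3 moved these counts. Without all 3 of them, 10 of 28 genes passed for Het against WT (12.5% of all features), 7 higher (6.49% of all features were) and 3 lower (5.97%). For KO against WT 7 of 28 passed (17.4% of all features), 4 higher (8.91% of all features) and 3 lower (8.47%), and for KO against Het 1 of 28 (9.16%). With WT replicate 3 alone left out, 6 of 28 passed for Het against WT (8.84% of all features), 6 of 28 for KO against WT (10.4%) and 0 of 28 for KO against Het (1.9%). These fits rest on 3 WT arrays, and the first also on KO replicates 4 and 5 as 2 of 3 KO arrays. With array weights, which count down arrays that fit the model less well, 12, 15 and 4 of 28 passed (19.1%, 39.1% and 32.5% of all features). With slide as a block 0 of 28 passed in each comparison (0.177%, 0.33% and 0.465% of all features).

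**Figure D1:**
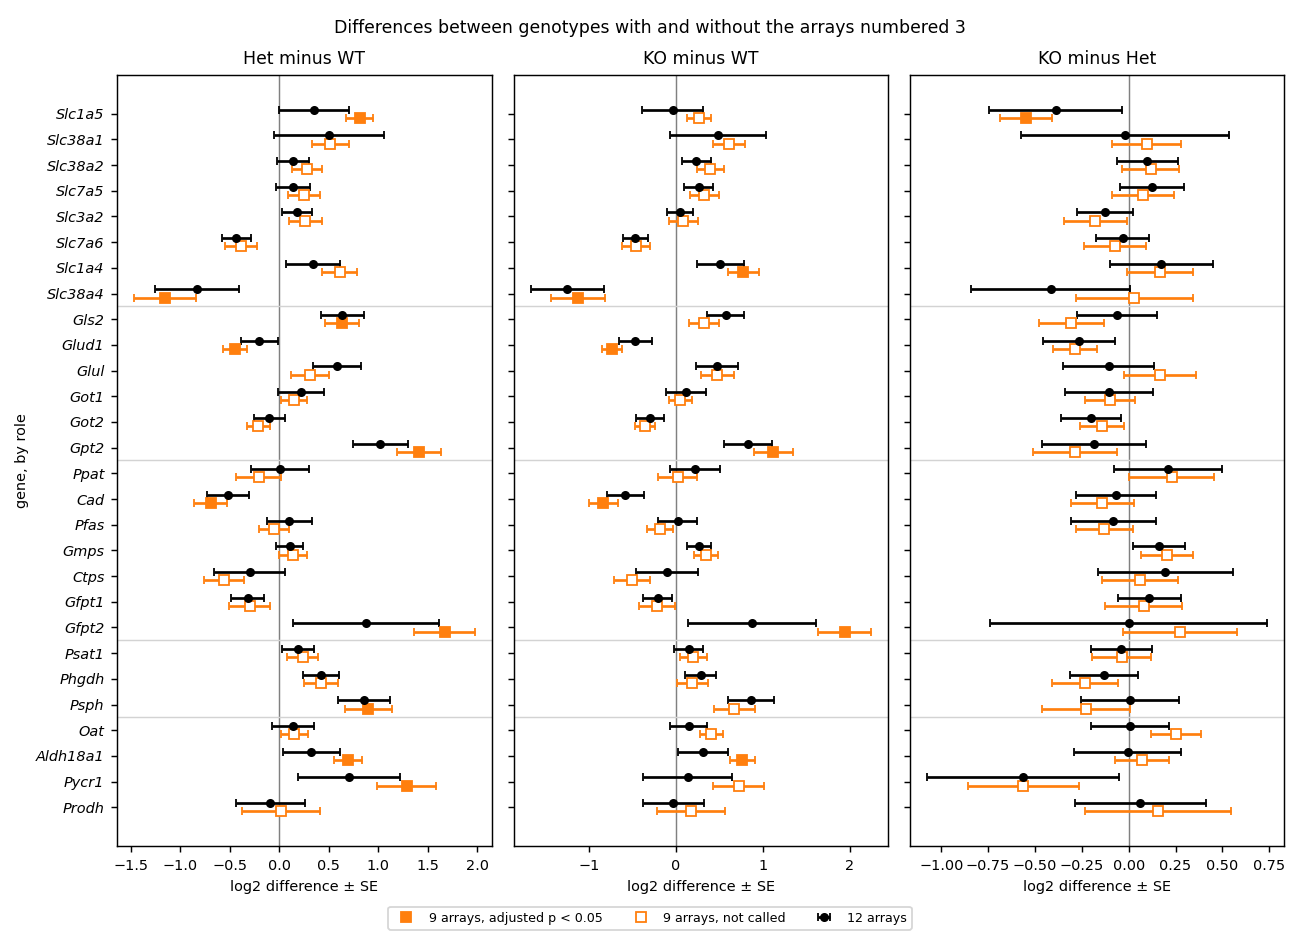
Log2 difference ± SE of the 28 tested genes in the 3 comparisons, ordered by role, for all 12 arrays (black circles) and for the 9 arrays left without those numbered 3 (squares, filled where the adjusted p is under 0.05). No black circle passed, while 10, 7 and 1 squares are filled from left to right.

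Among the carriers, Slc38a4, a sodium-coupled neutral amino acid transporter (system A), showed the widest separation from WT in KO cells. Its standing probe, on chromosome 15 from 96996450 to 96996509 (build mm7, as all probe positions here; gene models of mm7 are not used here), read 1.40, 2.40, 1.04 and 2.57 in WT, 1.37, 1.18, 0.81 and 0.73 in Het, and 0.81, −0.58, 1.12 and 1.06 in KO. WT overlapped both other genotypes, through WT replicate 3, and KO replicate 3 was the lowest array. The means were 1.85 ± 0.74, 1.02 ± 0.30 and 0.61 ± 0.80 (SD, n = 4 each). KO minus WT was −1.25 (SE 0.42, limma adjusted p = 0.167), −0.91 and −1.47 within slides 3 and 4, and −1.31 in the fit blocked on slide (adjusted p = 0.304). Het minus WT was −0.83 (SE 0.42, adjusted p = 0.351). With the arrays numbered 3 left out both passed, at −1.12 (adjusted p = 0.0407) for KO and −1.15 (0.0464) for Het. Without WT replicate 3 alone, KO passed at −1.52 (0.0471).

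A second Slc38a4 probe was the only one of 50 tested probes of these genes to pass with all 12 arrays when every probe was fitted separately. It is shown because the deposited positions of its ends, chr15:97014865-97017540 on the minus strand of mm7, lie 2676 bases apart for a probe of 60 bases, at a different place in the gene from the first probe. The sequence is that of the deposited array annotation, 5′ to 3′, with no part capitalised.
Slc38a4 second probe: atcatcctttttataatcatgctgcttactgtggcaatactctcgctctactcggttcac

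This probe read −1.51, −0.33, −1.11 and −0.20 in WT, −1.86, −2.34, −2.32 and −2.21 in Het, and −2.18, −3.40, −2.46 and −1.99 in KO. Every WT array was above every Het and KO array. Over all features, at their standing probes, WT did not overlap Het for 9.39% and KO for 9.09%. This second probe was not fitted with slide as a block, without the arrays numbered 3 or under the other alternatives. The KO minus WT difference was −1.72 (SE 0.35, limma adjusted p = 0.0357 over 25601 probes, of which 1.48% passed). The Het minus WT difference was −1.40 (SE 0.35, adjusted p = 0.0811) and KO minus Het −0.32 (SE 0.35, 0.799). Both probes were lower in Het and KO than in WT.

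**Figure D2:**
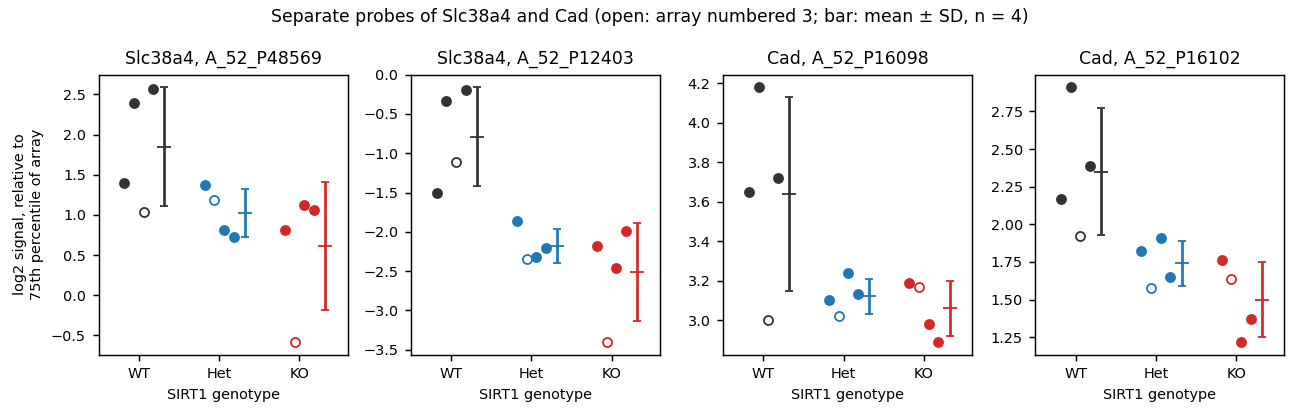
Log2 level relative to the 75th percentile of the array for 2 probes of Slc38a4 and 2 of Cad, by genotype, with 1 point per array (open for arrays numbered 3) and mean ± SD (n = 4). At the second Slc38a4 probe no WT array is as low as any Het or KO array, while the first probe overlaps.

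Slc1a5, the main glutamine carrier of many proliferating cells, was spread widely in WT. It read 2.81, 2.82, 4.51 and 2.62 in WT, 3.58, 3.48, 3.54 and 3.57 in Het, and 3.24, 3.56, 2.87 and 2.94 in KO (chromosome 7, 14562181 to 14562240). WT replicate 3 was the highest array, and the other WT arrays were below all Het and KO arrays. Het cells differed from WT by 0.35 (SE 0.36, adjusted p = 0.659) with all arrays, and 0.81 (SE 0.14, 1.76-fold, adjusted p = 0.0079) without those numbered 3. KO minus Het was −0.39 (SE 0.36, adjusted p = 0.768), 0.05, −0.34 and −0.66 within slides 1, 3 and 4, and −0.55 (adjusted p = 0.0443) without the arrays numbered 3. That last difference was the single call between KO and Het in that fit.

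Slc7a6, a cationic amino acid and glutamine exchanger, varied little among WT arrays and was lower in the mutants. Its values were 0.54, 0.76, 0.68 and 0.72 in WT, 0.23, 0.10, 0.36 and 0.27 in Het, and 0.55, 0.18, 0.05 and 0.05 in KO (chromosome 8, 104796102 to 104796161). WT and Het did not overlap, while KO replicate 2 lay within the WT range. It was 1 of 28 genes whose WT and Het arrays did not overlap (9.39% of all features). Between Het and WT the difference was −0.43 (SE 0.14, adjusted p = 0.163), −0.49 and −0.45 within slides 3 and 4. KO cells differed from WT by −0.47 (SE 0.14, adjusted p = 0.135), −0.17 and −0.68 within those slides. Leaving out the arrays numbered 3 gave adjusted p values of 0.172 and 0.0937, and a second probe −0.39 and −0.30.

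Of the remaining carriers, Slc1a4, which carries alanine, serine and cysteine, had KO minus WT of 0.51 (SE 0.27, adjusted p = 0.382) and Het minus WT of 0.34 (SE 0.27, 0.570). Without WT replicate 3 both passed, at 0.82 (0.0135) and 0.65 (0.0358), and without all arrays numbered 3 the KO difference passed at 0.78 (0.0198) while the Het difference was 0.61 (0.0598). The values reported for Slc1a4, Aldh18a1, Gfpt2, Slc38a1, Ctps and Ppat belong to genes singled out after their values were seen. Slc38a1 had differences from WT of 0.50 in Het (adjusted p = 0.689) and 0.48 in KO (0.731), with 1 of its 6 probes going the other way in both. Slc38a2, Slc7a5 and Slc3a2 had differences between 0.05 and 0.26 from WT at their standing probes (adjusted p 0.478 to 0.911). A second Slc3a2 probe went the other way, at −0.05 in Het and −0.29 in KO, as did 1 of 4 Slc38a2 probes in Het (−0.06).

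Around the transaminases, the mitochondrial alanine aminotransferase Gpt2 had the smallest p of the 28 genes in Het cells. It read 0.45, 1.01, 1.71 and 1.42 in WT, 2.30, 1.56, 2.44 and 2.35 in Het, and 2.05, 1.68, 2.09 and 2.10 in KO (chromosome 8, 84117668 to 84117727). The only mutant arrays within the WT range were Het replicate 3 and KO replicate 3, and WT replicate 3 was the highest WT array. Means were 1.14 ± 0.55, 2.16 ± 0.41 and 1.98 ± 0.20 (SD, n = 4). Het minus WT was 1.02 (SE 0.28, 2.03-fold, limma adjusted p = 0.0981), 0.95 and 0.93 within slides 3 and 4, and 0.95 in the fit blocked on slide (adjusted p = 0.218). KO minus WT was 0.83 (SE 0.28, adjusted p = 0.160), 0.69 and 0.67 within the same slides. Without the arrays numbered 3 Gpt2 passed in both, at 1.41 (SE 0.22, 2.65-fold, adjusted p = 0.00575) and 1.12 (SE 0.22, 0.0112). It passed as well without WT replicate 3 alone, at 1.20 (0.0232) and 1.02 (0.0382). Gpt2 alone passed in Het without Het replicate 3.

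Gls2, a mitochondrial glutaminase, read −0.72, −0.33, −1.09 and −0.63 in WT, 0.24, −0.44, 0.06 and −0.09 in Het, and 0.02, 0.22, −0.40 and −0.32 in KO (chromosome 10, 127711271 to 127711330). WT replicate 2 overlapped both mutants. The Het minus WT difference was 0.64 (SE 0.21, adjusted p = 0.168) and KO minus WT 0.57 (SE 0.21, 0.203), with 0.95 and 0.54, then 0.73 and 0.26, within slides 3 and 4. The Het difference passed without the arrays numbered 3 (0.63, adjusted p = 0.0482), and the KO difference was then 0.33 (0.240).

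Glud1, mitochondrial glutamate dehydrogenase, read 5.09, 5.01, 4.21 and 4.86 in WT, 4.52, 4.74, 4.57 and 4.54 in Het, and 4.17, 4.54, 4.28 and 4.30 in KO (chromosome 14, 31779215 to 31779274). WT replicate 3 fell within the range of the KO arrays, and the other 3 WT arrays were above all 8 mutant arrays. The KO minus WT difference was −0.47 (SE 0.19, adjusted p = 0.241), −0.43 and −0.57 within slides 3 and 4, and Het minus WT −0.20 (SE 0.19, 0.632). With the arrays numbered 3 left out both passed, at −0.73 (SE 0.12, adjusted p = 0.00445) in KO and −0.45 (SE 0.12, 0.0439) in Het. KO minus Het was −0.27 (SE 0.19, adjusted p = 0.679), −0.11, −0.34 and −0.25 within slides 1, 3 and 4.

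Glul, glutamine synthetase, read −0.31, −0.31, −0.85 and 0.01 in WT, 0.45, 0.54, −0.08 and −0.05 in Het, and 0.05, −0.38, 0.45 and 0.32 in KO. All 3 genotypes overlapped. Het cells differed from WT by 0.58 (SE 0.24, adjusted p = 0.258), 1.03 within slide 3 and −0.05 within slide 4, and 0.31 (adjusted p = 0.343) without the arrays numbered 3. Got2, the mitochondrial aspartate aminotransferase, read 4.15, 4.39, 3.73 and 4.25 in WT, 4.04, 3.97, 4.00 and 4.11 in Het, and 3.90, 3.59, 3.95 and 3.88 in KO. It was 1 of 2 genes whose Het and KO arrays did not overlap (10.6% of all features), with KO minus Het at −0.20 (SE 0.16, adjusted p = 0.717), −0.40, −0.15 and −0.19 within slides 1, 3 and 4. On the unscaled signals this difference was 0.05. Got1, the cytosolic enzyme, differed from WT by 0.22 in Het (adjusted p = 0.679) and 0.12 in KO (0.866).

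**Figure D3:**
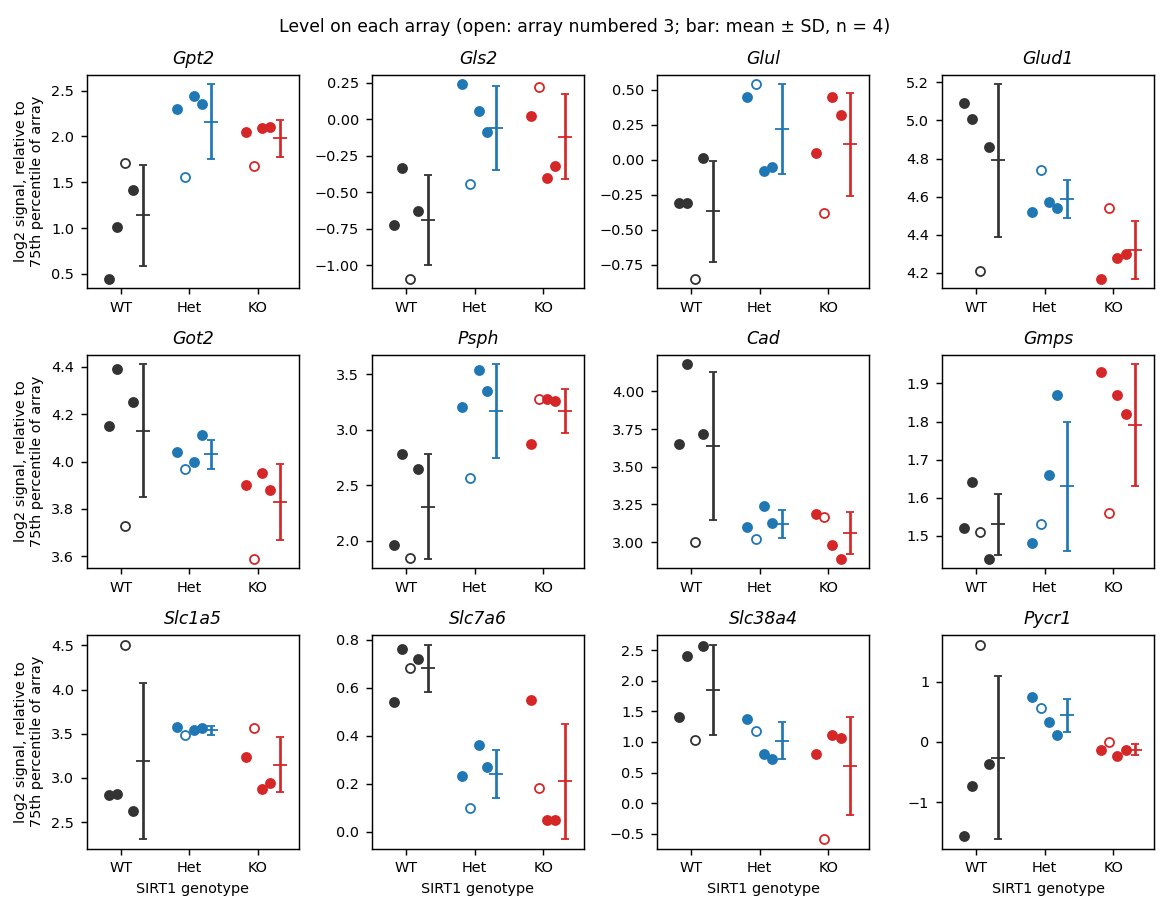
Log2 level relative to the 75th percentile of the array for 12 genes, by genotype, with 1 point per array (open for arrays numbered 3) and mean ± SD (n = 4). For Glud1, Slc1a5 and Pycr1 the open WT point lies far from the other WT points, toward or beyond the levels of the mutants.

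Of the enzymes that spend the amide nitrogen of glutamine, Cad carries the first steps of pyrimidine synthesis. KO was lower than WT at all of its 4 probes. Het was lower too, but only by −0.04 (limma adjusted p = 0.952) at the probe from 30099590 to 30099649. The other probes lie close together, between 30110457 and 30110883, and the standing probe overlaps the probe from 30110804 to 30110863. Its standing probe (chromosome 5, 30110824 to 30110883) read 3.65, 4.18, 3.00 and 3.72 in WT, 3.10, 3.02, 3.24 and 3.13 in Het, and 3.19, 3.17, 2.98 and 2.89 in KO. WT replicate 3 was among the mutants, and the other WT arrays were above all 8 of them. Between Het and WT the difference was −0.52 (SE 0.21, limma adjusted p = 0.256), −0.49 and −0.59 within slides 3 and 4. KO cells differed from WT by −0.58 (SE 0.21, adjusted p = 0.194), −0.41 and −0.79 within them, and −0.85 (adjusted p = 0.0780) at the probe with the largest difference. Without the arrays numbered 3 both passed, at −0.69 (0.0322) and −0.83 (0.0120), and without WT replicate 3 alone at −0.73 (0.0191) and −0.80 (0.0119).

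Gfpt2, which makes glucosamine-6-phosphate for the hexosamine pathway, read −3.06, −4.20, −2.65 and −4.21 in WT, −1.95, −4.16, −2.32 and −2.19 in Het, and −2.12, −4.98, −1.71 and −1.81 in KO. Het and KO replicate 3 were near or below the lowest WT arrays, while the other mutant arrays were above every WT array. The differences from WT were 0.87 in each mutant with all arrays (SE 0.74, adjusted p = 0.589 in Het and 0.615 in KO). Without those numbered 3 they were 1.67 (3.18-fold, 0.0103) and 1.94 (3.84-fold, 0.00394), the largest of the 28 genes in that fit. Its paralog Gfpt1 had −0.32 (adjusted p = 0.370) and −0.21 (0.593).

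The amidotransferases of purine and CTP synthesis overlapped among the genotypes and none passed. Gmps, GMP synthetase, read 1.52, 1.64, 1.51 and 1.44 in WT, 1.48, 1.53, 1.66 and 1.87 in Het, and 1.93, 1.56, 1.87 and 1.82 in KO. KO minus Het was 0.16 (SE 0.14, adjusted p = 0.743), −0.03, 0.46 and −0.02 within slides 1, 3 and 4. Ppat, the first committed enzyme of purine synthesis, had 0.01 (adjusted p = 0.993) in Het and 0.22 (0.775) in KO. Pfas had 0.10 (0.854) and 0.02 (0.978), and CTP synthase Ctps −0.30 (0.718) and −0.10 (0.930).

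In serine synthesis the 3 enzymes were higher than WT in both mutants, and none passed. Psph, phosphoserine phosphatase, read 1.96, 2.78, 1.85 and 2.65 in WT, 3.21, 2.57, 3.54 and 3.35 in Het, and 2.87, 3.28, 3.28 and 3.26 in KO (chromosome 5, 129003399 to 129003458). It was the 1 gene of 28 whose KO and WT arrays did not overlap (9.09% of all features), and Het replicate 3 lay within the WT range. Het minus WT was 0.86 (SE 0.26, 1.81-fold, adjusted p = 0.136), 0.89 and 0.69 within slides 3 and 4. KO minus WT was 0.86 (SE 0.26, adjusted p = 0.131), 0.56 and 0.62 within them. With the arrays numbered 3 left out the Het difference passed at 0.90 (0.0404) and the KO difference was 0.67 (0.0845). Phgdh, which starts the pathway, had 0.42 (SE 0.18, adjusted p = 0.279) in Het and 0.28 (0.474) in KO, and the glutamate-dependent transaminase Psat1 0.19 (0.603) and 0.15 (0.721).

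In proline synthesis, Pycr1, the last enzyme, had the widest spread in WT. It read −1.57, −0.74, 1.62 and −0.36 in WT, 0.74, 0.57, 0.34 and 0.11 in Het, and −0.13, 0.00, −0.23 and −0.14 in KO (chromosome 11, 120748910 to 120748969). WT replicate 3 was the highest of the 12 arrays and the other 3 WT arrays were the lowest. Every Het array was above every KO array, with KO minus Het at −0.56 (SE 0.51, adjusted p = 0.767), −0.45, −0.87 and −0.29 within slides 1, 3 and 4. The Het minus WT difference was 0.70 (SE 0.51, adjusted p = 0.522), and 1.29 (SE 0.30, 2.44-fold, 0.0260) without the arrays numbered 3. Aldh18a1, which makes the proline precursor from glutamate, read 0.84, 0.97, 2.31 and 1.11 in WT, 1.71, 1.52, 1.67 and 1.62 in Het, and 1.96, 1.29, 1.65 and 1.60 in KO. WT replicate 3 was again above all others. Its differences from WT were 0.32 in both mutants (adjusted p = 0.608 and 0.647), and 0.69 (0.0169) and 0.76 (0.00862) without the arrays numbered 3. Oat, ornithine aminotransferase, had 0.14 (0.777) and 0.15 (0.794), and Prodh, proline dehydrogenase, −0.09 (0.926) and −0.03 (0.980).

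The array labelled WT replicate 3 lay beyond every other WT array and over 2-fold from their mean for 9 of 28 genes (27.1% of all features). Of the 9, 5 were higher (10.5% of all features were), namely Pycr1 by 2.51, Slc1a5 by 1.76, Aldh18a1 by 1.34, Slc1a4 by 1.25 and Gfpt2 by 1.17. The other 4 were lower (16.6% of all features), with Ctps at −1.65, Slc38a1 at −1.49, Ppat at −1.15 and Slc38a4 at −1.08 from that mean. Het replicate 3 did so for 2 genes (12.2% of all features, 7.06% lower), Slc38a1 at −1.54 and Gfpt2 4.01-fold lower. KO replicate 3 did so for 3 genes (10.2%, 4.92% lower), Slc38a1 at −2.01, Gfpt2 at −3.09 and Slc38a4 at −1.58. Slc38a1 was thus low on number 3 in all 3 genotypes, and Gfpt2 was high there in WT and low in the mutants. The median SD of the 28 genes was 0.45 in WT, 0.21 in Het and 0.20 in KO, against 0.45, 0.26 and 0.23 over all features.

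**Figure D4:**
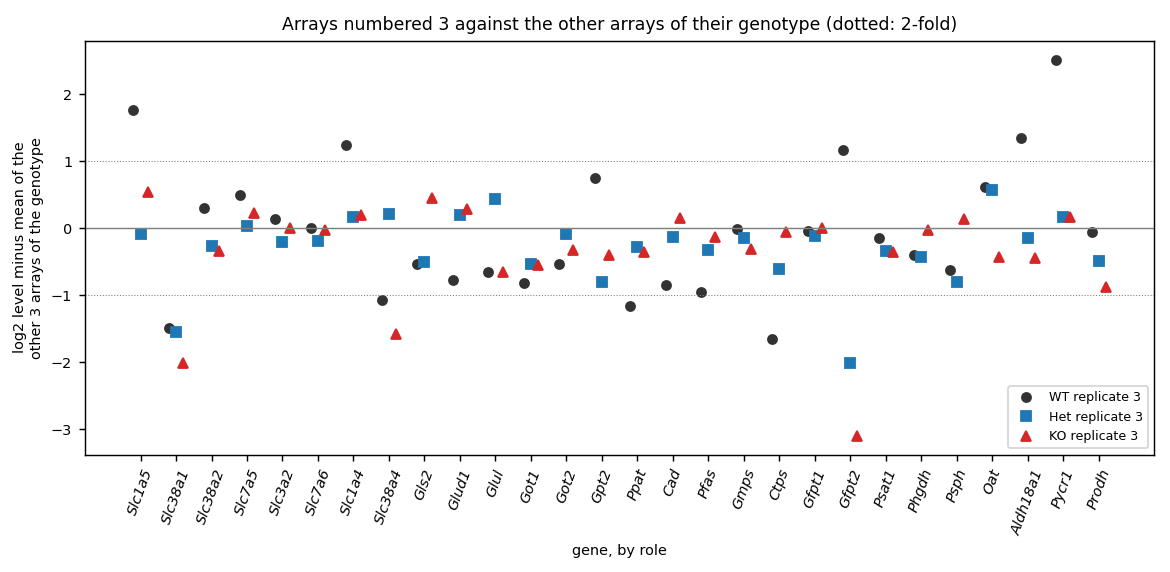
Level on the array numbered 3 minus the mean of the other 3 arrays of the same genotype (log2), for the 28 tested genes by role, with dotted lines at a 2-fold difference. Pycr1, Slc1a5, Aldh18a1 and Slc1a4 are above the upper line in WT alone, and Slc38a1 is below the lower line in every genotype.

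Promoters were examined for 2 motifs that bind regulators of amino acid genes. TGATGCAA is the core of composite sites of the C/EBP and ATF factors, and CACGTG is an E-box, which Myc and related factors can bind. Windows from 250 bases before to 50 after the start were read from RefSeq (GRCm38.p6) and matched for 24 of the 29 genes. Searched on both strands, TGATGCAA occurred in 0.895% of 32851 promoters, or for 1.03% of 27025 genes. Of the 24 genes it occurred for 3, Slc1a4, Pycr1 and Got1. CACGTG occurred in 7.15% of promoters, or for 8.09% of genes, and for 2 of the 24, Aldh18a1 and Slc38a5. The motifs do not overlap in letters. The 4 windows are shown because Slc1a4, Pycr1 and Aldh18a1 are among the genes high on WT replicate 3, while Got1 was lower there, by −0.81. Slc1a5 and Gfpt2, the other genes over 2-fold high there, were not among the genes with either motif. The window of Slc38a5, which was not tested, is not shown. A link between motif and level was not tested. Sequences run 5′ to 3′ along the gene's strand, capitals mark the motif, and a capital TTGCATCA is the first motif on the opposite strand.
Slc1a4, chr11:20332710-20332747, minus strand: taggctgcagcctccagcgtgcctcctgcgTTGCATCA
Pycr1, chr11:120643814-120643881, minus strand: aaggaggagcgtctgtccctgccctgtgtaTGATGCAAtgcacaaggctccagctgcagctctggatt
Got1, chr19:43524670-43524737, minus strand: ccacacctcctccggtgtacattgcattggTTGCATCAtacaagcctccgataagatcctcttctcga
Aldh18a1, chr19:40588487-40588552, minus strand: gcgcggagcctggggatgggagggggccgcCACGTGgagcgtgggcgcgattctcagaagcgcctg

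The first base of the motif lies 4 bases before the start in Slc1a4, so that the motif spans the start there, and 103, 102 and 59 bases before it in Pycr1, Got1 and Aldh18a1. A match is a description of these letters and shows no binding.

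The lists of neighbouring pathways were read in the same fit. With all 12 arrays, 0 of 13 other purine and pyrimidine genes passed in any comparison, with CTP synthase Ctps2 at 0.66 (SE 0.16, adjusted p = 0.0736) in Het and Gart, a purine enzyme, at −0.73 (SE 0.21, 0.117) in KO against WT. Of 8 tested serine and one-carbon enzymes 0 passed, with Mthfd1l at 0.65 (0.159) in Het and Cbs at −0.87 (0.189) in KO. Of 23 other amino acid carriers 0 passed with all arrays. Against WT, 12 were higher and 11 lower in each mutant, and KO was higher than Het for 13 and lower for 10. The cystine carrier Slc7a11 was at 1.65 (SE 0.39, 0.0688) in Het and the glycine carrier Slc6a9 at 1.15 (SE 0.30, 0.0912) in KO, and these had 2.23 (0.00302) and 1.38 (0.000633) without the arrays numbered 3. Slc7a2, an arginine carrier, had KO minus Het of 3.48 (SE 0.78, 0.0715), and 4.45 (7.91e-05) without those arrays, with 2 of 4 Het arrays well above background. Slc6a15, with the next smallest p in that comparison, went the other way, at −2.91 (SE 1.03, 0.285). Without the arrays numbered 3 it was at −3.09 (0.00648).

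Of 8 amino acid stress genes, 7 were higher in Het than in WT (median 0.44) and 5 higher in KO (median 0.20), and 0 passed with all arrays. The pseudokinase Trib3 had 1.56 (SE 0.37, adjusted p = 0.0682) and 1.23 (0.129), and the glutathione-degrading Chac1 0.99 (0.0731) and 1.01 (0.0638). Without the arrays numbered 3 the medians of the list were 0.42 and 0.03, and Trib3 passed at 2.03 (0.000609) in Het and 1.42 (0.00233) in KO.

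With the arrays numbered 3 left out, 12.5% of all features passed between Het and WT, 17.4% between KO and WT and 9.16% between KO and Het. In that order of comparisons, 2, 4 and 0 of 13 purine and pyrimidine genes passed, 2, 2 and 1 of 8 serine and one-carbon enzymes, 5, 7 and 4 of 23 carriers, 2, 3 and 0 of 8 stress genes, and 6, 4 and 3 of 19 enzymes of glutamate, asparagine, arginine and branched-chain metabolism.

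With all 12 arrays, 1 of these 19 enzymes passed, arginase Arg1, in KO against Het. Against WT, 8 of the 19 were higher and 11 lower in Het, and 10 were higher and 9 lower in KO. The succinate semialdehyde dehydrogenase Aldh5a1 had 0.70 (SE 0.18, adjusted p = 0.0827) in Het and 0.78 (SE 0.18, 0.0549) in KO against WT, and asparagine synthetase Asns 0.97 (SE 0.29, 0.129) in KO. Arg1 read −7.91, −8.13, −7.44 and −6.52 in Het and −2.97, −4.52, −4.02 and −4.15 in KO, with 1 of 4 Het arrays and all 4 KO arrays well above background. Against the lowest signal well above background on each Het array, or the probe's own signal where higher, KO was at least 4.22-fold higher than Het (limma adjusted p = 0.0340 on the measured signals). The call was lost with slide as a block (adjusted p = 0.139), with the replicate block over numbers 2, 3 and 5 (0.215), with normexp background correction (0.127) and with no filter on dim probes (0.0761). It was also lost without any 1 of WT replicate 5, Het replicates 2, 4 and 5, and KO replicates 2, 4 and 5 (0.0511 to 0.133).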

How the data were processed

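RNA of 12 samples was labelled with Cy3, 500 ng each, and hybridised to 1-colour Agilent 4x44K arrays on 4 slides. The authors' deposited value is the processed signal of each spot, an intensity on a linear scale, extracted with Agilent Feature Extraction 9.5 per the submitters' processing notes. It is background-subtracted, per the file headers, and not scaled between arrays. Other deposited columns used include the call of a spot well above background and the marks of outlier spots. The mean signal and median background of a spot entered only the normexp alternative. Here control and outlier spots were left out, spots of 1 probe averaged, and log2 taken relative to each array's 75th percentile. The probe with the highest mean stood for its gene, and a feature was tested if well above background on all arrays of at least 1 genotype. Genotypes were compared in 1 limma 3.58.1 fit (R 4.3.3) of 12 arrays with 3 group means and Benjamini-Hochberg adjustment over all tested features. The fit was tested on simulated data. Precision is limited by 4 arrays per genotype.

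Genes given in full are, per comparison, those with an adjusted p under 0.05 and the 6 with the smallest p, and in each neighbouring list those called and others drawn from the 2 with the smallest p. The members and lists were chosen with earlier results of these data known. Alternatives covered background correction, scaling, filters, probes, slide, replicate number, array weights and left-out arrays.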

Additional observations from a re-analysis of the deposited data

Results flagged for a closer look

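In 84 groups of 4 arrays (28 genes, 3 genotypes) 1 array lay far from the other 3 by Dixon's test at its 95% critical value in 9 cases. Of the 9, 8 were on arrays numbered 3. The nominal rate is about 1 in 20 independent groups, but these groups reuse the same 12 arrays. The share flagged over all features was not computed. By the 2-fold rule above, WT, Het and KO replicate 3 stood apart for 27.1%, 12.2% and 10.2% of all features. On WT replicate 3, Slc1a5 stood at 4.51 against 2.62 to 2.82 on the other WT arrays. On Het replicate 3, Gpt2 stood at 1.56 (2.30 to 2.44 elsewhere in Het), Gfpt2 at −4.16 (−2.32 to −1.95) and Oat at 3.91 (3.32 to 3.37). On KO replicate 3, Gpt2 stood at 1.68 (2.05 to 2.10 elsewhere in KO), Got1 at 2.22 (2.72 to 2.81), Slc38a1 at 1.52 (3.35 to 3.64) and Gfpt2 at −4.98 (−2.12 to −1.71). The remaining case was Psph on KO replicate 2, at 2.87 against 3.26 to 3.28.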

How the results depend on the processing

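With array weights 12, 15 and 4 of 28 genes passed for Het against WT, KO against WT and KO against Het (19.1%, 39.1% and 32.5% of all features), against 0 with equal weights. Without the arrays numbered 3 the counts were 10, 7 and 1. Fitting every probe separately gave 1 gene, Slc38a4, in KO against WT. Leaving out 1 array at a time gave 0 to 6, 0 to 6 and 0 to 0 genes, above 0 without WT replicate 3 (6 and 6) or Het replicate 3 (1, in Het). The counts stayed at 0 under normexp, quantile scaling, no scaling, no filter, a filter over all 12 arrays, slide as a block and fits of 2 genotypes. With the replicate block they were 0, 0 and 0, and the median differences 0.14, 0.14 and −0.04. Same-numbered arrays correlated between −0.04 and 0.43 in their deviations, with 5 of 10 pairs over 0.1, so the numbers were not taken to pair arrays. The pairs numbered 3 were all positive, at 0.43 (WT and Het), 0.36 (Het and KO) and 0.22 (WT and KO). What these arrays share was not tested. Over all features 212, 299 and 164 passed in the main comparison, 30, 56 and 79 with slide as a block, 82, 117 and 146 with the replicate block, 0, 9 and 10 with that block over numbers 2, 3 and 5, 44, 155 and 71 with normexp, 79, 142 and 164 unscaled, 37, 95 and 65 with no filter, 205, 268 and 110 with the filter over all 12 arrays, 39, 124 and 285 with 2 genotypes, and 17 to 1521, 52 to 1786 and 37 to 399 leaving out 1 array. Without scaling the median of all features was −0.16, 0.09 and 0.23, and that of the 28 genes −0.09, 0.16 and 0.22. Unscaled, 9 of 28 differences turned in sign for Het minus WT, 0 for KO minus WT and 13 for KO minus Het. Among the genes with the smallest p in KO minus Het, the sign turned for Got2 unscaled (0.05) and for Slc38a4 with array weights (0.15) and without the arrays numbered 3 (0.03); the cause was not tested.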
